A study of Mus musculus with 10 samples.

Results

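Replication-dependent histone genes encode the core histones H2A, H2B, H3 and H4 and the linker histone H1 that package newly made DNA. They were taken here as every protein-coding gene whose name starts with Hist1h, Hist2h, Hist3h or Hist4h in the deposited gene tables, which gave 67 genes of 51826 listed. By class, 6 were H1 genes, 18 H2A genes, 18 H2B genes, 12 H3 genes and 13 H4 genes, and 3 pseudogenes with such names were left out. The large cluster on chromosome 13 held 54 of them between positions 21715763 and 23934851 of mm10, and 10 lay on chromosome 3, 2 on chromosome 11 and 1 on chromosome 6.

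Their expression was measured by RNA-seq in inguinal white adipose tissue (iWAT), a subcutaneous fat depot, of male C57BL/6 mice, with 1 library per mouse. The F0 generation comprised males of 10 to 12 weeks of age that were themselves fed a control diet (CD, n = 2) or a low-protein diet (LPD, n = 2). The F1 generation comprised males of 5 weeks of age whose fathers had been fed the CD (n = 3) or the LPD (pLPD offspring, n = 3). The mothers and the F1 mice received the CD, and the F1 mice of a group came from different mothers. Generation, age and the set of libraries coincide, so these cannot be told apart in any comparison of F1 with F0. RNA came from the whole depot, and adipocyte markers were abundant in every library, with a summed level of 18013 to 25153 counts per 1000000 (CPM) over 9 genes.

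In most tissues, mRNA of these genes is made in bulk when cells replicate their DNA. It ends in a short stem-loop instead of a poly(A) tail, and the stem-loop is bound by the protein SLBP. Some members are also known to give polyadenylated transcripts in cells that no longer divide. The libraries were made from total RNA after depletion of ribosomal RNA, without selection for poly(A), so both forms could be read.

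The stem-loop was looked for in the GENCODE M21 transcripts of GRCm38, the assembly that mm10 names, as a perfect stem of 6 base pairs opening with GG around a loop of 4 bases opening with TT. It was found in 42 of the 65 members present there, against 0.59% of all 21901 protein-coding genes, and all 42 sites lay inside the gene as listed in the deposited tables. The following sites are examples from each class, with stem and loop in capitals.
Hist1h1c (H1): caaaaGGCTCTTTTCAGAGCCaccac
Hist2h2aa1 (H2A): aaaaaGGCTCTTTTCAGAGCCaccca
Hist1h2bg (H2B): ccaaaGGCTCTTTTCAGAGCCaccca
Hist1h3e (H3): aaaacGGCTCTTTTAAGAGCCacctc
Hist1h4d (H4): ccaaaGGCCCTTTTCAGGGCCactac
Hist1h4i (H4): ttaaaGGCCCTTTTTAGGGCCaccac
These lie in the 3′ untranslated regions, at chr13:23739512-23739527 (plus strand) in Hist1h1c, chr3:96246032-96246047 (plus) in Hist2h2aa1, chr13:23571843-23571858 (plus) in Hist1h2bg, chr13:23561903-23561918 (minus) in Hist1h3e, chr13:23581950-23581965 (plus) in Hist1h4d and chr13:22040966-22040981 (minus) in Hist1h4i, the coordinates giving the capitals. Every site in the H1, H2A, H2B and H3 classes had the stem GGCTCT. The loop varied within classes. In H3, 5 sites had TTTC and 3 had the TTTA of Hist1h3e, which was also in 1 H1 and 2 H2B sites. In the H4 class, 9 sites had GGCCCT and 2 had GGTCCT. For the 23 members without a match, this says only that the pattern was not in the annotated transcripts.

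The start of each gene was described from 300-base RefSeq promoter windows of GRCm38.p6, from 250 bases before to 50 bases after the start, which matched 62 members. The octamer ATTTGCAT, the site named for Oct factors, was found on either strand in 7 of 18 H2A and 6 of 16 H2B windows and in none of the windows of the other classes, against 1.74% of all 32851 windows. The letters CCAAT were found on either strand in 53 of the 62 windows, against 37.41% of all windows. All H1, H2A, H2B and H3 windows had them, but 3 of 12 H4 windows did. The letters TATAAA on the gene's own strand were in 30 of 62 windows, against 8.32%. A match is a description of the sequence and does not show binding. In 12 instances an H2A and an H2B gene faced away from each other with 236 to 306 bases between their starts.

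Between 6351075 and 10044546 exon reads were counted per library, and 3 reads corresponded to 0.299 to 0.472 CPM, which takes in counting error alone. The libraries of pLPD offspring stood apart from the others in makeup. Exons held 51.6% to 59.3% of the reads on protein-coding genes in them and 62.1% to 64.0% in the other groups. Mitochondrial rRNA held 13.5% to 18.2% of the reads on genes in pLPD offspring, and 9.29% to 12.4% elsewhere.

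Many members are near copies of one another, and 23 of the 67 overlap another listed gene. A smaller share of their reads than over all genes could therefore be placed with certainty. Of 109356 exon reads on the 67 genes, 58.8% matched 1 gene alone, against 86.7% over all genes. This share was 98.0% in the H1 class, whose genes are the most different from each other, 70.2% in H4, 58.2% in H2B, 32.1% in H3 and 15.3% in H2A. In 8 members it was under 1%, in 17 under 20%, and in 16 it was at least 80%. In the GENCODE transcripts, the percentage of 36-base windows, the length of a read, that also occurred in another gene was 0 in Hist1h1a and took in every window of Hist2h2aa1. Across 60 members with at least 20 reads, this percentage and the unique share went in opposite directions (Pearson r = −0.80, Spearman rho = −0.79), a description over genes that share libraries and sequence. Hist3h2a departed from this, with no unique read among 1557 while 31.9% of its windows were shared. It overlaps Trim17 on the same strand, and it is named here after its values were seen. Hist1h4b, Hist2h2aa1, Hist2h2aa2, Hist2h2bb, Hist2h3b and Hist2h3c1, also under 1% unique, overlap other listed genes as well. Windows shared with overlapping genes count in the percentage too, so near copies and overlaps were not told apart.

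**Figure D1:**
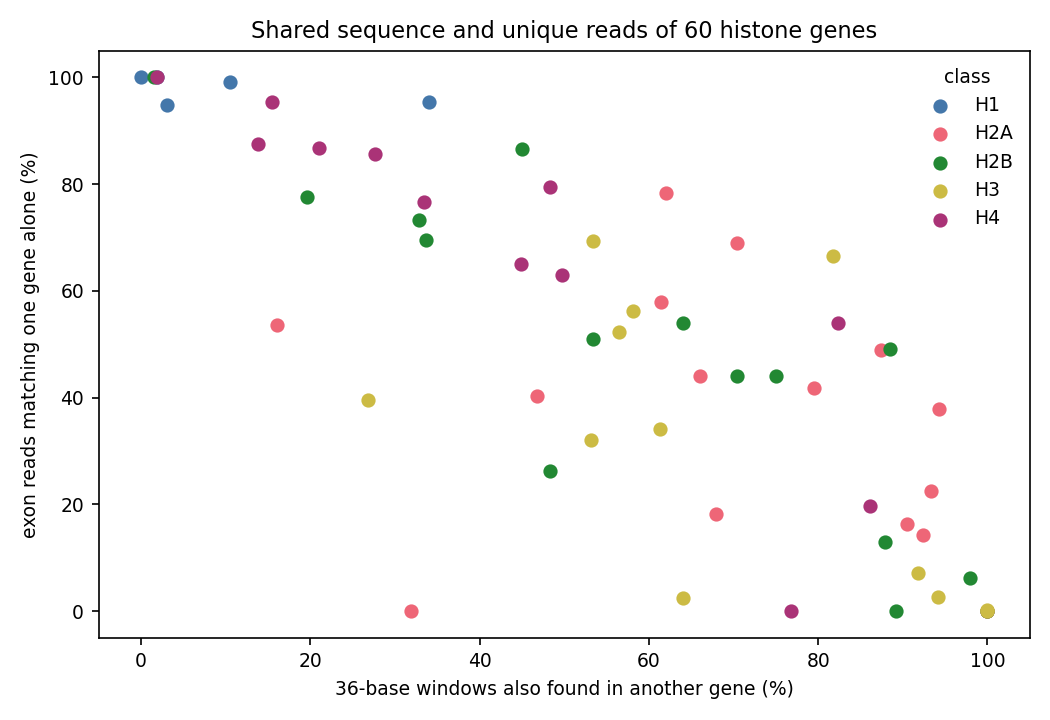
Each point is 1 of 60 histone genes with at least 20 reads, coloured by class. The x axis gives the percentage of 36-base transcript windows found in another gene and the y axis the percentage of exon reads that matched the gene alone, which lies at 94.8% or above in the 5 H1 genes and near 0% in genes whose windows are all shared.

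The limits of placement were plain in pairs of nearly identical genes. Hist2h2aa1 and Hist2h2aa2, neighbouring H2A genes on chromosome 3, shared every window of the shorter transcript. Their coefficients of variation between mice of a group were 19.4% and 14.8% taken singly, but 8.51% for their sum. Hist1h2bq and Hist1h2br shared 97.32% of windows, Hist1h2ao and Hist1h2ap 93.71%, and Hist1h4m and Hist1h4n 90.19%, and in each of these pairs the second gene received most of the reads. Values of members with a low unique share are therefore given as uncertain. The same fits were also run on unique exon reads, where members with too few such reads were not tested. Their values are given for some of the named members only.

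Per kb of exon, a pair of H4 genes had the highest levels. Hist1h4d had a mean of 197 CPM per kb over the 10 libraries (range 171 to 231), and Hist1h4h 162 (141 to 173). The H2A gene Hist2h2aa1, at 152 (118 to 204), came next, before the H4 gene Hist1h4n at 151 (110 to 192), and the ranges of these neighbours overlapped. In the H2A class, Hist2h2aa2 with 130 and Hist1h2ap with 48.4 followed. Among linker histone genes, Hist1h1c had 134 CPM per kb (80.8 to 179), Hist1h1e 98.1 and Hist1h1d 42.7. Hist1h2bc led the H2B class with 85.6 CPM per kb (70.9 to 111), above Hist1h2bg with 39.96 and Hist2h2bb with 33.2. The H3 genes were lower, with 61.6 for Hist2h3b, 39.4 for Hist1h3h and 35.3 for Hist1h3e. These levels rest on the exon length listed in the tables, which for short models ends soon after the coding part.

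At the other end, 5 members had fewer than 20 reads in all libraries together. The testis histone genes Hist1h1t, Hist1h2aa and Hist1h2ba had 8, 1 and 3 reads, and Hist1h2ao and Hist1h4m had 5 and 6. These genes were not tested, nor was Hist1h2bq with 49 reads.

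The first comparison was of the 5-week F1 mice with the 10- to 12-week F0 mice, as the mean of both F1 groups against the mean of both F0 groups. The histone genes were higher in F1 as a group. Hist1h1c, a linker histone gene with 99.1% unique reads, lay between 223 and 279 CPM in the 6 F1 mice (median 258) and between 126 and 152 CPM in the 4 F0 mice (median 134). Every F1 mouse was above every F0 mouse. Its log2 fold change was 0.92 (standard error 0.08, adjusted p = 4.1e-06, edgeR's quasi-likelihood test, adjusted by Benjamini-Hochberg for 15111 genes tested). Of the 61 members tested, 42 rose in F1 and none fell, against 16.4% of all genes tested that were called higher and 16.1% that were called lower. At an unadjusted p under 0.05, 48 members were higher and none lower, against 3239 and 3184 of all 15111 genes tested. DESeq2 called 40 members higher and 0 lower. The median log2 fold change of the members was 0.86, against 0.00 over all genes (0.0046). In 30 members every F1 mouse lay above every F0 mouse, which held for 10.2% of all genes tested. Counting only the 52 members with at least 10 reads in every library, 37 rose. Fewer cells of a type and less RNA per cell cannot be told apart in such bulk samples.

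The classes differed in how many of their members rose. All 5 H1 genes tested rose, with a median log2 fold change of 0.98, as did 11 of 16 H2A genes (median 1.09), 12 of 16 H2B genes (1.14), 8 of 12 H3 genes (0.56) and 6 of 12 H4 genes (0.29). These medians were not tested against one another. By sequence, 25 of 39 tested members with a stem-loop match rose (median 0.69) and 15 of 20 without one (1.05). With the octamer in the promoter window 10 of 11 rose (0.98), and without it 31 of 45 (0.90). Of the members with at least 50% unique reads, 20 of 31 rose (0.64), and of those with fewer, 22 of 30 (1.07). None of these differences was tested. Besides Hist1h1c, the linker histone genes Hist1h1e and Hist1h1d had log2 fold changes of 0.57 (adjusted p = 0.00036) and 1.16 (adjusted p = 1.41e-06) in edgeR's test, both with over 90% unique reads.

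Among H2A genes, Hist1h2ap lay between 22.7 and 35.9 CPM in F1 and between 11.3 and 17.6 CPM in F0, and the log2 fold change was 1.07 (standard error 0.11, edgeR adjusted p = 1.83e-05). Of its reads 22.5% were unique. The highest log2 fold change of all, 2.00 in Hist1h2ad, did not pass the test (standard error 0.84, edgeR adjusted p = 0.085). This H2A gene had 0 reads in 1 mouse of each F0 group and from 5 to 69 reads in F1 mice, so the groups overlapped. Among H2B genes, Hist1h2bg lay between 17.2 and 25.3 CPM in F1 and between 11.9 and 15.1 CPM in F0, with a log2 fold change of 0.74 (edgeR adjusted p = 0.00059).

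Among H3 genes, Hist2h3b (log2 fold change 0.71), Hist1h3b (0.96), Hist1h3e (0.42) and Hist2h3c2 (0.44) passed the test. Between 0.042% and 66.6% of their reads were unique. Hist1h3e and Hist2h3c2 overlapped between the generations, while the other 2 did not. The calls were not equally stable. That of Hist1h3e was lost in the CD groups alone (log2 fold change 0.10), with limma and with the replicate block (0.24 each). That of Hist2h3c2 was lost in the LPD groups alone (0.17), with the block (0.47) and without the second CD-fed F0 mouse (0.33), and that of Hist1h3b in the CD groups alone (0.68). Among H4 genes, Hist1h4f lay between 17.2 and 27.4 CPM in F1 and between 8.73 and 13.1 CPM in F0, with a log2 fold change of 1.03 (edgeR adjusted p = 0.000295). Hist2h4, whose reads were all unique, had a log2 fold change of 0.30 (edgeR adjusted p = 0.021), and this call was lost when any of 5 libraries was left out. It was also lost with DESeq2 (log2 fold change 0.29), limma (0.11) and the block (0.41), and in the CD (0.28) or LPD groups alone (0.32). Hist1h4n passed with 0.43, but 19.6% of its reads were unique and its log2 fold change was −0.13 in unique reads.

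Among the members with the highest levels per kb, most did not pass the test. Hist1h4d lay at 85.9 and 85.5 CPM in CD-fed F0 mice, 71.8 and 75.7 in LPD-fed F0 mice, 71.5, 72.1 and 67.2 in offspring of CD fathers, and 72.7, 79.2 and 90.9 in pLPD offspring. Hist1h4h lay between 66.7 and 81.8 CPM in F1 and between 73.3 and 80.2 CPM in F0. The generations overlapped in both genes, and edgeR gave log2 fold changes of −0.08 (standard error 0.07) and −0.02 (standard error 0.07). The direction was not stable, since Hist1h4d was at −0.28 in the CD groups alone, where it was called lower (edgeR adjusted p = 0.041), and at 0.14 in the LPD groups alone. Hist2h2aa1 and Hist2h2aa2, best taken as their sum, reached 141 to 180 CPM in F1 and 146 to 171 CPM in F0. The lowest log2 fold change, −0.10 (standard error 0.11), was that of Hist4h4, a solitary H4 gene on chromosome 6. Of the 9 members above a mean of 80 CPM per kb, a value chosen after seeing the data, 3 rose, namely Hist1h1c, Hist1h1e and Hist1h4n, with a median log2 fold change of 0.14 over the 9. Of the other 52 members tested, 39 rose, with a median of 0.97.

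**Figure D2:**
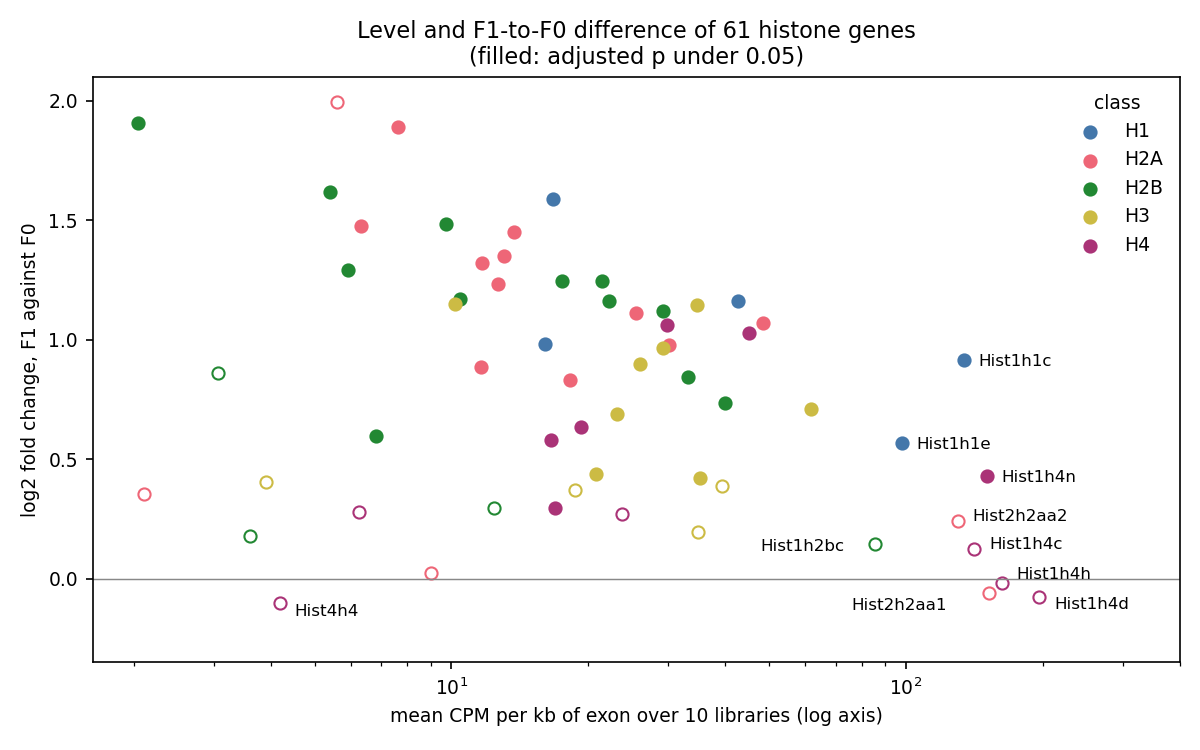
Each point is 1 of the 61 histone genes tested, with its mean CPM per kb of exon on a log axis and its log2 fold change of F1 against F0, coloured by class and filled where the adjusted p was under 0.05. Hist1h4d, Hist1h4h and Hist2h2aa1 sit near 0 at the right, while Hist1h1c at 134 CPM per kb sits at 0.92.

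Summed over all 67 genes, the level was 1080 and 1075 CPM in CD-fed F0 mice, 1119 and 1124 in LPD-fed F0 mice, 1567, 1466 and 1478 in offspring of CD fathers, and 1601, 1742 and 1574 in pLPD offspring. The F1 mean was 1.43 times the F0 mean. The ratio was 1.84 for the H1 sum, the highest of the classes, followed by H2B at 1.56, H3 at 1.49, H2A at 1.32 and H4 at 1.15. For all of these sums each F1 mouse lay above each F0 mouse, but the H4 sums overlapped without TMM scaling and with RPKM (ratio 1.02). As a share of the members' reads, H1 went from 19.2% to 22.5% in F0 mice to 24.0% to 28.5% in F1 mice, and H4 from 30.3% to 32.3% to 24.5% to 26.5%.

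With unique exon reads alone, the H2A and H4 sums gave other values. The unique H2A sum was 28.4 to 32.9 CPM in F0 and 51.9 to 76.5 CPM in F1, a ratio of 2.02, since the unique reads leave out Hist2h2aa1 and Hist2h2aa2. The unique H4 sum was 1.02 times as high in F1 and its generations overlapped. In the fit on unique reads, 32 of 48 members tested rose and 1 fell, with a median log2 fold change of 0.88. The 1 that fell, Hist1h4h, had a log2 fold change of −0.18 (edgeR adjusted p = 0.046). Of the members tested in both fits, 31 rose in both, 5 in total reads alone and 1 in unique reads alone.

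**Figure D3:**
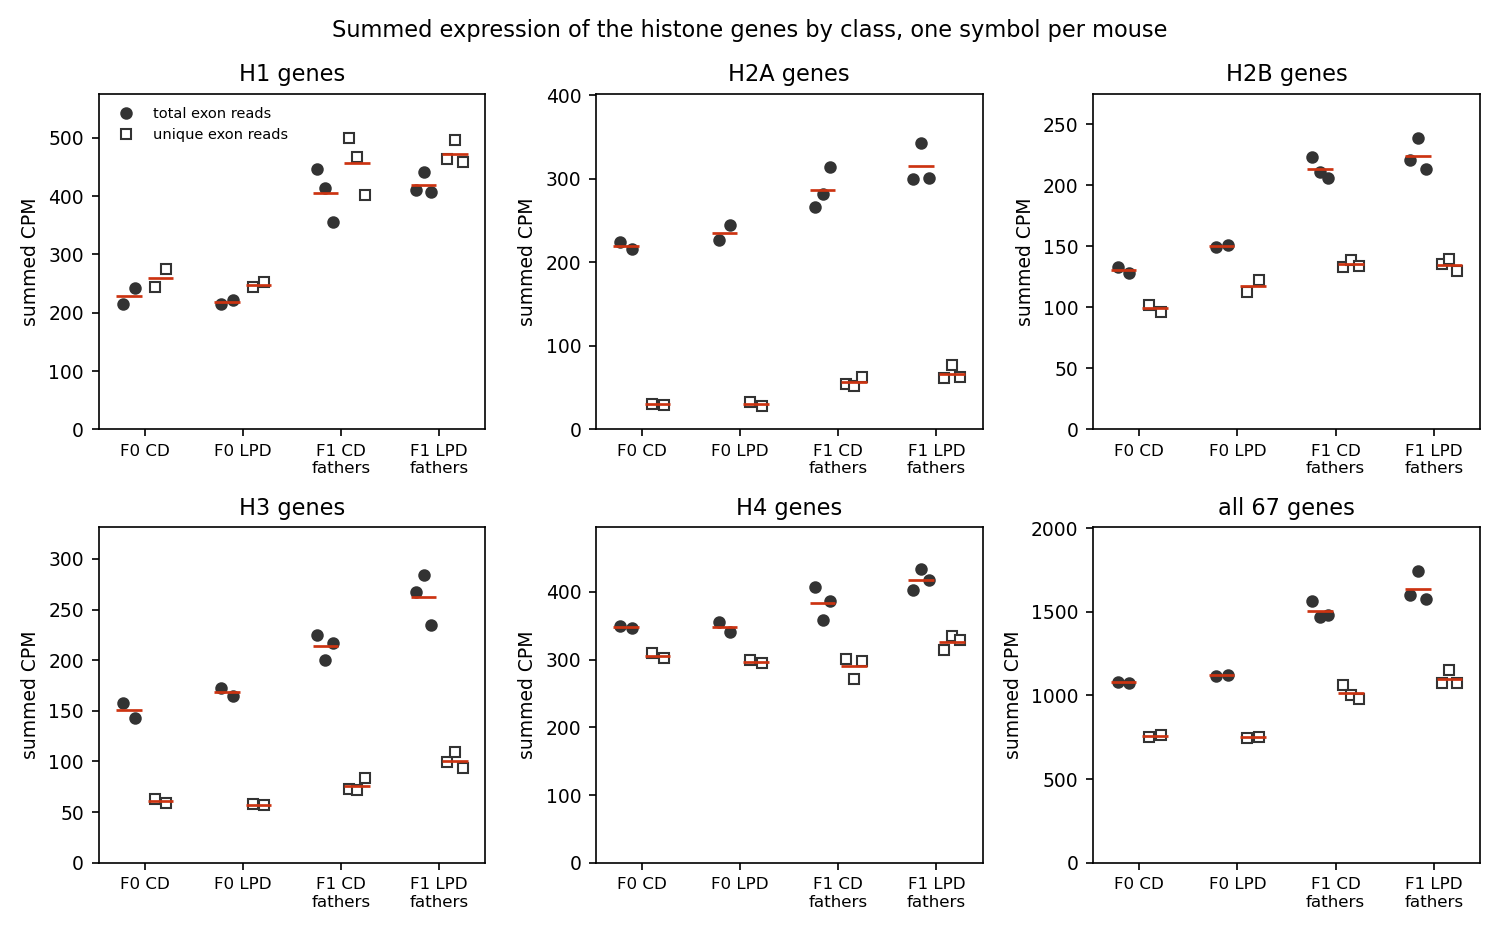
Summed CPM of the histone genes of each class and of all 67 genes, 1 symbol per mouse, with the group mean as a red line. Filled circles are total exon reads and open squares unique exon reads, each scaled to its own library total, so that H1 unique values can exceed the total ones; total sums are higher in all F1 mice than in F0 mice in every class.

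Genes of DNA replication and cell division were counted in the same fit. Of 33 such genes, 17 rose in F1 and 1 fell, against 16.4% and 16.1% of all genes tested, and the median log2 fold change was 0.38. The 1 that fell was the cyclin gene Ccne2 (−0.65, edgeR adjusted p = 0.035), named here after its values were seen. Mki67, a marker of cycling cells, had 0.71 (edgeR adjusted p = 0.00016), Top2a, which untangles replicated DNA, 1.04 (7.55e-06), and the replicative helicase genes Mcm3, Mcm6 and Mcm7 had 0.60, 0.38 and 0.35. Pcna, the replication clamp, was not among those that passed. Their summed level was 357 to 389 CPM in F0 and 421 to 584 CPM in F1. Of 11 histone variant genes, 5 rose and none fell. Those that rose were H2afz (0.63), which encodes H2A.Z, Cenpa (0.73), the centromeric H3 variant, H2afx (0.60), H3f3b (0.40) and H2afy (0.28).

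Of 14 factors that transcribe, process or degrade histone mRNA, 4 rose and 1 fell. Lsm11, a part of the U7 particle that cuts histone mRNA, rose by 0.85 on the log2 scale, Eri1, a nuclease that trims histone mRNA ends, by 0.27, Upf1, which takes part in its decay, by 0.21, and the cleavage factor gene Cpsf1 by 0.19. Npat, a coactivator of histone genes, fell by 0.40. Slbp had a log2 fold change of 0.20 with an adjusted p of 0.12 in edgeR's test, and it is named here after its values were seen. Of 15 histone chaperone genes, Nasp (0.36) and Daxx (0.30) rose, and Nap1l1 (−0.55) and Tonsl (−0.24) fell, which is close to the shares of 16.4% and 16.1% over all genes.

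Markers of other cells moved with generation as well. Skeletal muscle markers were lower in F1 in 7 of 7 genes, with a summed level of 37.0 to 150 CPM against 656 to 2101 CPM in F0. Of 12 lymphocyte markers, 6 rose and 1 fell (640 to 904 CPM in F1, 628 to 838 in F0). Those that rose were the T cell genes Cd3d (0.87), Lck (0.65), Cd3e (0.59), Cd8a (0.57), Cd3g (0.46) and Cd4 (0.38). Of the B cell genes in the list, Pax5 fell (−0.30) and none rose. Of 9 adipocyte markers, 5 fell (18013 to 23478 CPM in F1, 20922 to 25153 in F0), as did 2 of 5 macrophage markers (349 to 615 and 488 to 596 CPM) and 2 of 3 progenitor markers (274 to 480 and 393 to 508 CPM), while 2 of 3 endothelial markers rose (370 to 596 and 356 to 414 CPM). None of 5 epithelial markers (0.153 to 12.8 and 1.52 to 2.997 CPM), of which 3 were tested, and none of 3 red cell markers (345 to 796 and 421 to 926 CPM) was called. Myh7 among muscle markers and Krt5, Krt8, Krt14 and Krt18 among epithelial markers were at 0 in at least 1 library. The part of these cells in the histone result was not tested.

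The second comparison asked whether the father's diet changed the members in F1 offspring. Hist1h2bc, the most abundant H2B gene, was the only member past the threshold, and it was down-regulated in pLPD offspring. It lies at chr13:23684199-23692488 of mm10 on the plus strand (ENSMUSG00000018102) and has 2 exons in the deposited tables, while 61 of the members have 1. Hist1h2bc was at 73.7, 81.5 and 77.6 CPM in offspring of CD fathers and at 55.6, 52.2 and 54.2 CPM in pLPD offspring. All pLPD offspring lay below all offspring of CD fathers. The log2 fold change was −0.51 (standard error 0.09, adjusted p = 0.022, edgeR over 14049 genes). Of the 60 members tested, 1 was called lower and 0 higher, against 1.02% and 0.142% of all genes tested. DESeq2 called 1 higher, the H3 gene Hist1h3f, and 1 lower.

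The unique and the junction reads of Hist1h2bc were lower in pLPD offspring too. Its unique exon reads were at 51.0, 64.3 and 57.0 CPM in offspring of CD fathers and at 39.7, 34.4 and 40.8 CPM in pLPD offspring. The log2 fold change in unique reads was −0.58 (standard error 0.12, edgeR adjusted p = 0.029). The reads across its exon junction numbered 48, 74 and 57 in offspring of CD fathers and 21, 36 and 37 in pLPD offspring, or 7.57 ± 1.05 and 4.62 ± 1.296 CPM (SD, n = 3 each), a ratio of 0.61 that was not tested. The groups did not overlap in these measures. They did overlap in the reads listed as intron reads, at 7.02, 10.2 and 10.1 CPM in offspring of CD fathers and 7.81, 9.22 and 7.79 CPM in pLPD offspring, a ratio of 0.91. The call was lost when either of the first 2 offspring of CD fathers or of the first 2 pLPD offspring was left out, with log2 fold changes between −0.55 and −0.48. It was also lost when each library's exon share entered the fit as a covariate (−0.54, edgeR adjusted p = 0.33), a fit that called 1 gene higher and 10 lower in all. Exon share goes with the father's diet in these libraries, so this fit cannot tell them apart.

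Hist1h2bc shares its start region with the H2A gene Hist1h2ac, which is read in the other direction from 275 bases away. The RefSeq promoter window of Hist1h2ac at chr13:23683910-23684209 of GRCm38.p6 covers the interval between both starts. It is printed here on the strand of Hist1h2ac because it lies between the starts of both genes, with the octamer and CCAAT on either strand in capitals.
Hist1h2ac promoter: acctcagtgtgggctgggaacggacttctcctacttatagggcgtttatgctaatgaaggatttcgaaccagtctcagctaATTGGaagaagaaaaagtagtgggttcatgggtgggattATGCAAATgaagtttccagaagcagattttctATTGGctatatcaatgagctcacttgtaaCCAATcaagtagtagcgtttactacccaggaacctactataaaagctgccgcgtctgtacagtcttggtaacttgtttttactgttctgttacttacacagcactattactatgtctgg
Hist1h2ac was at 6.21, 3.24 and 5.78 CPM in offspring of CD fathers and at 8.57, 9.22 and 7.95 CPM in pLPD offspring. Here all pLPD offspring lay above all offspring of CD fathers, but the log2 fold change of 0.78 did not pass the test (standard error 0.26, edgeR adjusted p = 0.19). Hist1h2ac is named here after its values were seen. No stem-loop match was found in the annotated transcript of Hist1h2bc, whereas that of Hist1h2ac has one.

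**Figure D4:**
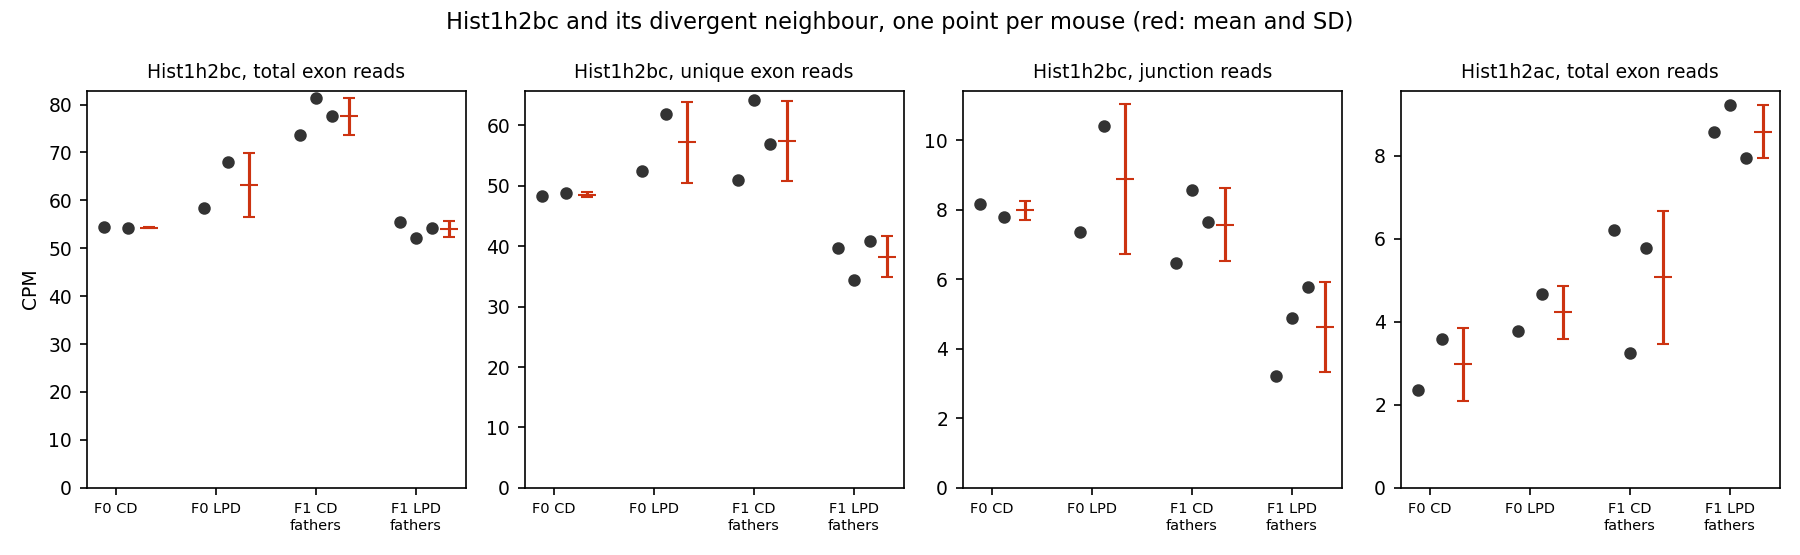
CPM of Hist1h2bc in total exon reads, unique exon reads and exon junction reads, and of Hist1h2ac in total exon reads, 1 point per mouse with the group mean and SD in red. In the 3 panels of Hist1h2bc all pLPD offspring lie below all offspring of CD fathers, and in that of Hist1h2ac they lie above.

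No other member passed the test in F1, although most had values above 0. The log2 fold change was above 0 in 50 of the 60 members tested, against 51.4% of all genes, with a median of 0.27 against 0.01 (0.0074) over all genes. At an unadjusted p under 0.05, 17 were higher and 2 lower, against 923 and 1231 of all 14049 genes tested. In 17 members all pLPD offspring lay above all offspring of CD fathers, and in 2 they lay below, against 9.21% and 10.9% of all genes. The nearest to the threshold were the H3 genes Hist1h3d, at 11.3, 11.5 and 13.7 CPM in offspring of CD fathers and 19.1, 19.7 and 16.8 in pLPD offspring, and Hist1h3f, at 24.0, 21.9 and 30.2 and 36.1, 41.1 and 35.1 CPM. Their log2 fold changes were 0.62 and 0.57, each with an adjusted p of 0.070 in edgeR's test. Both are named after their values were seen.

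The class medians of the log2 fold change were 0.28 for H1, 0.22 for H2A, 0.43 for H2B, 0.34 for H3 and 0.17 for H4. The highest value, 1.36 in the H2A gene Hist1h2ah, and the lowest, −1.08 in the H4 gene Hist1h4i, rested on few reads and did not pass. Hist1h2ah had 33, 10 and 13 reads in offspring of CD fathers and 58, 53 and 16 in pLPD offspring, and 14.3% of its reads were unique. Hist1h4i had 45, 40 and 72 reads against 6, 34 and 25. Summed over all members, the mean was 1504 ± 54.9 CPM in offspring of CD fathers and 1639 ± 90.3 CPM in pLPD offspring (SD, n = 3 each), a ratio of 1.09, and the groups did not overlap. With the deposited RPKM summed instead, the ratio was 1.003 and the groups overlapped. Of the classes, the sum of H3 alone did not overlap in CPM, with 225, 200 and 217 CPM against 267, 285 and 235 CPM, a ratio of 1.23 that was 1.32 in unique reads. With RPKM it was 1.11 and the groups overlapped. The H4 sums, which overlapped in CPM, did not overlap in unique reads, with a ratio of 1.124.

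None of the 33 replication and division genes, 14 histone mRNA factors, 15 chaperone genes and 11 variant genes was called in F1 by edgeR's test. In the first list, 28 genes were above 0 with a median log2 fold change of 0.29. At an unadjusted p under 0.05, 10 of them were higher, against 923 of all 14049 genes tested. Mki67 had a log2 fold change of 0.35 and Pcna 0.21. Slbp and Upf1 had 0.21 and −0.02, the chaperone genes Nap1l1 and Rbbp4 0.10 each, and the H3.3 genes H3f3a and H3f3b −0.06 and 0.21. Other cells' markers differed too. Of 5 macrophage markers, Csf1r, Cd163 and Adgre1 were called lower in pLPD offspring, whose summed level of the list was 349 to 418 CPM against 524 to 615, and Krt8 and Krt18 of the epithelial list were called lower. None of 12 lymphocyte markers was called, although all were above 0 and 6 had an unadjusted p under 0.05, with a summed level of 640 to 737 CPM in offspring of CD fathers and 675 to 904 CPM in pLPD offspring. Their part in the histone values was not tested. Exon share was 51.6% to 59.3% in pLPD offspring and 62.5% to 64.0% in offspring of CD fathers. It therefore cannot be told apart from the father's diet in F1, also in the fit with the covariate. The members' median in that fit was 0.26.

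The third comparison was of LPD-fed with CD-fed F0 males. Of 59 members tested, 1 rose and 0 fell, against 1.18% and 1.32% of all 14581 genes tested. DESeq2 called 0. At an unadjusted p under 0.05 the numbers were 8 higher and 3 lower, against 1098 and 1196 of all genes tested. The 1 that rose was Hist1h3h, an H3 gene at chr13:21717659-21718069, with 8.17 and 11.1 CPM in CD-fed and 18.1 and 18.6 CPM in LPD-fed mice. The groups did not overlap, and its log2 fold change was 0.92 (standard error 0.17, edgeR adjusted p = 0.035). Of its 1276 reads 34 were unique, so its value could belong to another H3 gene, and in 3 of 4 fits without 1 library the call was lost.

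The median log2 fold change of the members in F0 was 0.09, against 0.00 (0.00035) over all genes. The highest was 1.09 in Hist1h2ae, with 2.24 and 1.60 CPM in CD-fed and 5.36 and 2.69 CPM in LPD-fed mice, and the lowest that of Hist1h2ah, with 14, 23, 10 and 0 reads in the 4 mice in that order of groups. Neither passed. The sum over all members was 1080 and 1075 CPM in CD-fed and 1119 and 1124 CPM in LPD-fed mice, a ratio of 1.04, and 0.99 in unique reads, where the groups overlapped. None of the replication, histone mRNA factor or variant lists had a gene past the threshold, and of the chaperones Nap1l1 alone was called, higher by 0.85 on the log2 scale. Hist1h2bc, down-regulated in pLPD offspring, was at 54.4 and 54.2 CPM in CD-fed and 58.4 and 68.0 CPM in LPD-fed F0 mice, with a log2 fold change of 0.22 that did not pass (edgeR adjusted p = 0.33).

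Markers of other cells differed in F0 as well. Of 7 muscle markers, 5 were called lower in LPD-fed mice (656 to 901 CPM in sum against 1377 to 2101 CPM), and 1 each of the adipocyte and macrophage markers was called lower and 1 lymphocyte marker higher. Their part in the F0 values was not tested.

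Whether the difference between diets itself differed between the generations was tested as an interaction over all 10 libraries. Of 61 members tested, 1 passed, Hist1h2bc, against 1.25% of all genes in either direction. Its diet difference was lower in F1 than in F0 by 0.74 on the log2 scale (standard error 0.13, edgeR adjusted p = 0.019). In unique reads the value was −0.82 (edgeR adjusted p = 0.028). The highest and lowest values, 3.15 in Hist1h2ah and −1.71 in Hist1h4i, did not pass and rested on libraries with as few as 0 and 6 reads. Of the other lists of histone biology, the chaperone gene Nap1l1 alone passed, with −0.75 (edgeR adjusted p = 0.039).

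**Figure D5:**
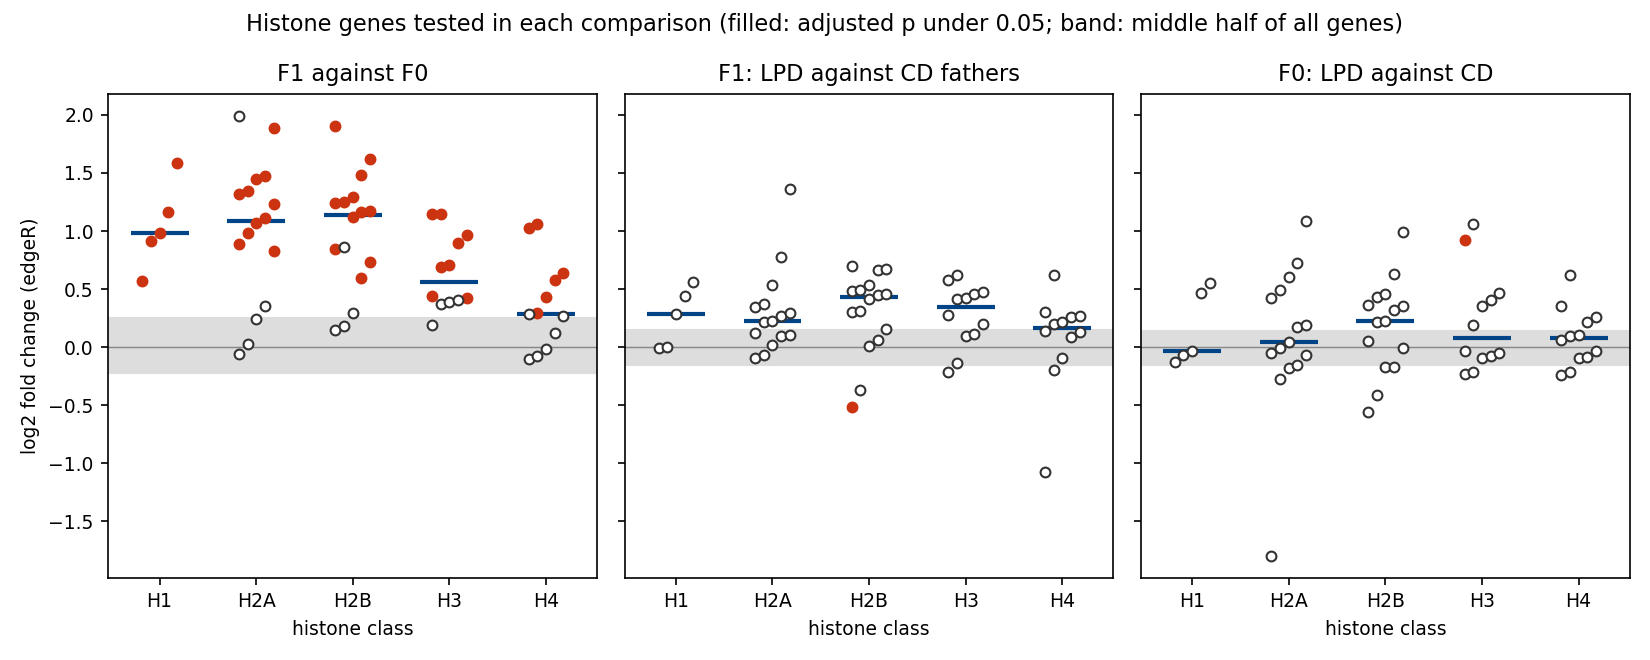
The log2 fold change (edgeR) of each histone gene tested, by class, for F1 against F0, for LPD against CD fathers in F1 and for LPD against CD in F0. Filled points passed an adjusted p of 0.05 (42, 1 and 1 genes), blue lines are class medians, and the grey band spans the 25th to 75th percentile of all genes tested.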

How the data were processed

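RNA-seq of iWAT from 10 mice was analysed from 1 deposited gene table per library. Per the labels and the study's methods, the authors depleted ribosomal RNA, made strand-specific paired-end libraries and aligned them with CLC Genomics Workbench, using mm10. The authors deposited raw read counts per gene (exon, intron, junction, total and unique) and RPKM. The deposited TPM values were not used. Replicates are separate mice.

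Total exon reads were tested with edgeR 4.0.16 in R 4.3.3 (filterByExpr, TMM scaling, quasi-likelihood F test, two-sided, Benjamini-Hochberg adjustment over all genes tested, threshold 0.05). F1 and F0 diets were fitted separately, and generation and interaction over all 10 libraries. CPM values are TMM-scaled, and sums over classes have no test. Levels are compared between genes per 1000 bases of listed exon.

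Alternatives were unique exon reads, the deposited expression value (whole-number counts whose rule is not given in the sources used here), DESeq2 1.42.0 and its size factors, limma 3.58.1 on log2(RPKM + 0.1), other filters, no TMM scaling, all groups in 1 fit, exon share as covariate, a replicate block and each library left out. The expression value gave nearly the same log2 fold changes as unique reads, −0.579 in both for Hist1h2bc in F1, so these are not separate checks. The fits were also run on simulated counts with large set changes and no reads shared between genes. That run does not bear on small changes in near-identical genes. The depth of 6351075 to 10044546 exon reads set a floor of 0.299 to 0.472 CPM.

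Members, gene lists and tests were chosen with earlier results of these data known. Named members were those past the threshold (at most 12 per comparison, by mean CPM), the 3 highest per class per kb, and the highest and lowest log2 fold change per comparison. From other lists, genes past the threshold were named (at most 5 per comparison), otherwise the 2 most abundant.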

Additional observations from a re-analysis of the deposited data

Results flagged for a closer look

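The diet difference of Hist1h2bc was not the same in both generations by a test of that difference itself. In F1 the level was lower in all 3 pLPD offspring than in all 3 offspring of CD fathers. In F0 the diet difference alone did not pass, with 54.4 and 54.2 CPM in CD-fed and 58.4 and 68.0 CPM in LPD-fed mice. Exon share goes with the father's diet in F1 and was not a covariate in this test, which 1 of 61 members and 1.25% of all genes passed. The interaction was −0.74 on the log2 scale (F1 minus F0, adjusted p = 0.019, edgeR). The call was lost, with adjusted p from 0.053 to 0.12, without the first or second CD-fed F0 mouse, the second LPD-fed F0 mouse or the second pLPD offspring.

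A second signal lay outside the exon reads. The tables listed 7863 reads as intron reads on members whose listed gene holds no intron, beside 102264 exon reads on them. Such reads were found on 54 of 62 members of this kind. They made up 7.14% of the exon and intron reads of these members, from 6.05% to 7.97% per library, and 0.741% in 1526 other protein-coding genes without a listed intron. Where these reads lie was not tested.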

How the results depend on the processing

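Members called higher and lower in F1 (0 and 1) numbered 1 higher with DESeq2, 2 higher with all 4 groups in 1 fit, 5 higher and 2 lower with no filter on low counts, and 0 lower with the exon share covariate. Leaving out each library gave 0 to 3 higher and 0 to 1 lower. In F0 (1 and 0), no member was higher with DESeq2, all 4 groups or limma, and 3 were higher and 1 lower with no filter. None was higher with the expression value or unique reads, but Hist1h3h was not among the members tested in those fits. Leaving out each F0 library left 1 mouse in a group and gave log2 fold changes of 0.72 to 1.17 for Hist1h3h. For generation (42 and 0), the CD groups alone gave 25 higher and 1 lower, a fit added after seeing the data, the LPD groups alone 35 higher, and the expression value and unique reads 1 lower each. Leaving out each library gave 36 to 43. For the interaction (0 and 1), no filter gave 2 higher and 3 lower, and leaving out each library 0 to 1 and 0 to 1. The members' median log2 fold change with limma was 0.11 in F1 and 0.67 for generation, where the median of all genes moved to −0.15 and −0.17. The cause of these changes was not tested.

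Among the changes of sign in log2 fold changes were those of Hist1h4i in F1 (0.22 with the covariate) and, for generation, of Hist1h4n (−0.13 with the expression value and with unique reads), Hist1h2ad (−0.23 with the replicate block), Hist4h4 (0.024 in the LPD groups alone) and Hist1h2bc (−0.22 in the LPD groups alone, −0.17 with the expression value and with unique reads, −0.032 with limma). Without a call in the main comparison, Hist1h4d went from −0.08 to 0.14 in the LPD groups alone, Hist1h4h from −0.02 to 0.08 with the block, and Hist1h4c from 0.12 to −0.12 in the CD groups alone and −0.05 with limma. Log2 ratios of class sums changed sign in F0 with unique reads for H3 (−0.079), H4 (−0.043) and all members (−0.010), and with summed RPKM for H4 in F0 (−0.076) and F1 (−0.026). Changes of sign within the spread between mice were those of H1 (−0.059), H2A (−0.0065) and H2B (−0.0077) in F1 with RPKM, H2B in F1 with unique reads (−0.0043) and H4 in F0 without TMM scaling (−0.011).

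Mice that share a replicate number had deviations from their group means that correlated by −0.00016 to 0.039 in F1 and by 0.049 in F0. In F0 both replicate numbers give the same value by construction, since the deviations of 2 mice mirror each other. With so few mice per group, these values cannot settle whether the numbers pair the mice. With the replicate block, 26 members were higher for generation, and 2 were higher and 1 lower in F0, while Hist1h2bc kept its calls.

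Over all genes, F1 calls (20 higher, 144 lower) were 73 and 268 with DESeq2, 62 and 277 with all 4 groups, 234 and 564 with no filter, 1 and 10 with the covariate, and 2 and 115 with limma. F0 calls (172 and 192) were 633 and 710 with no filter, 656 and 735 with the block, and 30 and 52 with limma. Generation calls (2474 and 2432) were 871 and 836 with the block and 1082 and 4239 with limma. Low read counts and the reads that matched several genes limit what single members show.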
